A study of Mus musculus with 24 samples.

Results

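Promoter capture Hi-C pulls down HindIII fragments that were chosen to carry gene promoters, called baits, together with the fragments ligated to them. Of the 22203 baits that stood in the first column of any deposited interaction list, 5668 had no annotated mouse RefSeq protein-coding gene end (either end of the gene) inside them or within 1 kb, and these fragments are described here. The other 16535 baits held or touched such an end and are called coding baits. Among the 5668, 2449 baits held the end of a non-coding RNA gene and 3219 did not. Those without comprised 2478 baits with no gene end of any kind, 733 with the end of a pseudogene alone and 8 with the end of an antigen receptor gene segment. Apart from the need for at least 1 listed interaction, the choice used positions only.

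The study collected cranial neural crest cells, the migratory population of the dorsal neural tube that forms most of the facial skeleton. Ezh2cKO libraries came from 4 tissues labelled FNP, Mx, Md and PA2 at E11.5, with 2 libraries each, and WT libraries came from the same 4 tissues at E11.5, likewise with 2 each. A further 6 libraries at E11.5 carried deletions named Hoxa2PTE-36kb-del (Md and PA2, 2 libraries each) or Hoxa2PTE-42kb-del (PA2, 2 libraries), and 2 WT libraries came from E8.5 progenitors. Per the labels' protocols, sorted cells came from Wnt1::Cre;ROSARFP embryos, in which a Wnt1-driven recombinase marks neural crest descendants, and from Ezh2cKO embryos, whose Cre driver is not named. The protocols do not say if deletion embryos were sorted too, and the genotype field of PA2 36kb-del replicate 2 holds another sample's title. The lists hold no expression values, so the cell label was not set against marker genes, and fewer cells with a contact cannot be told apart from a weaker contact in each cell.

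Each of the 24 lists gives pairs of fragments whose CHiCAGO score, a measure of excess ligation over what distance and the library's own background give, was 5 or more. A listed pair is called an interaction call. Libraries held 142284 to 190343 calls, and the baits without a coding gene end took part in 33558 to 43007 calls per library on the same chromosome (cis). Read depth was unknown. Each library had a batch label of its own, so batch and library cannot be told apart, and p-values measure the spread between these libraries.

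Ezh2 is the methyltransferase of Polycomb repressive complex 2, which marks histone H3 at lysine 27 over silent developmental genes. Polycomb-bound promoters are known to contact each other over long distances and between chromosomes. The non-coding genes in these baits are of several kinds. MicroRNAs repress messenger RNAs that match bases 2 to 8 of the mature strand, the seed. Long non-coding RNAs often start beside or antisense to a regulator gene, small nuclear RNAs take part in splicing, and small nucleolar RNAs guide the modification of ribosomal RNA.

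In the baits named below, apart from that of Mir143 and Mir145a, 43 gene symbols began with Mir, including the host genes Mirg and Mir17hg. Of these, 38 matched a mature sequence in RefSeq (GRCm38.p6). The mature strands that follow belong to the microRNA baits whose contacts differed most by stage or lay in a locus described below, with the seed in capitals.
mmu-miR-214-3p: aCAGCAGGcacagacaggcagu
mmu-miR-199a-5p: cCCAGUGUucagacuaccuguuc
mmu-miR-199a-3p: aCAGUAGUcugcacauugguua
mmu-miR-125b-5p: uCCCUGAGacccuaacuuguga
mmu-miR-17-5p: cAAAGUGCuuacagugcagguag
mmu-miR-20a-5p: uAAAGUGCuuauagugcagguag
mmu-miR-15b-5p: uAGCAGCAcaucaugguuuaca
mmu-miR-16-5p: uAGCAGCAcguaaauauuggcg
mmu-miR-302b-3p: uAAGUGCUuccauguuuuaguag
mmu-miR-302d-3p: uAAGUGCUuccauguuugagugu
mmu-miR-137-3p: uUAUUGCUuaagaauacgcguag
mmu-miR-9-5p: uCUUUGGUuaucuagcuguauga
mmu-miR-196a-5p: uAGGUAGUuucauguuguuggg
mmu-let-7g-5p: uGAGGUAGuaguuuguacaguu
In this set 3 pairs shared a seed, namely miR-17-5p with miR-20a-5p, miR-15b-5p with miR-16-5p, and miR-302b-3p with miR-302d-3p. Each such pair comes from a single bait. Mir124a-1, described below, is named without a sequence.

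Promoters are shown for 3 non-coding genes whose baits lost most of their calls in Ezh2cKO and for Dnm3os, whose bait gained calls by E11.5. Each runs from 250 bases before to 50 bases after the RefSeq start (GRCm38.p6) and is given in the direction of transcription. CG dinucleotides are in capitals, because Polycomb targets often lie in CG-rich promoters.
Pax6os1: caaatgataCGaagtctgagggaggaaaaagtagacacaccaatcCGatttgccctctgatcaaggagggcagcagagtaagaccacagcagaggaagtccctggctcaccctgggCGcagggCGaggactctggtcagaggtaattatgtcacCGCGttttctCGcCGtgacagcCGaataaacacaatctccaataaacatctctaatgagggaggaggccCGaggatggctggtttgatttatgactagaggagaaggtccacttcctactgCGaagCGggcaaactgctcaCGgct
Gm14114: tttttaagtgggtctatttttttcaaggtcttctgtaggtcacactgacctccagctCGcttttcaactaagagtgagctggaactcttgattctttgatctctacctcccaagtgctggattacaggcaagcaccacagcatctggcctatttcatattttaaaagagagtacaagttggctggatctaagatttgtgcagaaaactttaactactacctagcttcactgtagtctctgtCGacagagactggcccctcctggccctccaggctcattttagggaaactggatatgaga
6430503K07Rik: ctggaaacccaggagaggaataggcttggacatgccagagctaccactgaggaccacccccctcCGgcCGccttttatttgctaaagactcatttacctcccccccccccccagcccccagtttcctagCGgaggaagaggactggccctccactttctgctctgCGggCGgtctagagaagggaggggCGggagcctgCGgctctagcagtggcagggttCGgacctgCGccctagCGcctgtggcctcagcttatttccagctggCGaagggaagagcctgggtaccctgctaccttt
Dnm3os: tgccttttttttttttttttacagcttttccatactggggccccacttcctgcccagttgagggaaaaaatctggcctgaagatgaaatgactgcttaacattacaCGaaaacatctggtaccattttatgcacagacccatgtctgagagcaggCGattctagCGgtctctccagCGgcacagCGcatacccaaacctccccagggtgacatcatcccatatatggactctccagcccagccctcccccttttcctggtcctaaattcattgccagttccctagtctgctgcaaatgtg
The motif CG reads the same on both strands and does not overlap itself. The Pax6os1 promoter (chr2:105670281-105670580, minus strand) held 13 CG, and 37.9% of 32851 RefSeq mouse promoters of the same length held as many or more. The 6430503K07Rik promoter (chr2:147187174-147187473, plus strand) held 11 (41.4% held as many). The Dnm3os promoter (chr1:162217373-162217672, plus strand) held 5 (62.0%) and the Gm14114 promoter (chr2:146840521-146840820, minus strand) held 2 (85.9%). The median over the table was 7, and 94.6% held at least 1. A whole promoter lay inside 208 tested baits with a non-coding gene end. The median number of CG there was 7.5 in 14 baits that fell in Ezh2cKO, 7 in 15 that rose and 6 in 179 others.

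The baits without a coding gene end were shorter than coding baits and lay at a wide range of distances from coding gene ends. Their median length was 5.07 kb, against 6.07 kb for coding baits. The median gap to the nearest coding gene end was 21.3 kb, the widest was 2053 kb, and 1176 baits (20.7%) lay over 100 kb away. Within the span of a coding gene, between its ends, lay 3016 baits (53.2%). That held for 1675 of the 2478 baits with no gene end at all, so most of those were internal fragments of coding genes. Baits with a non-coding gene end held long non-coding RNA genes in 840 cases, small nuclear RNA genes in 693, small nucleolar RNA genes in 651 and microRNA genes in 355, with some baits holding several kinds.

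Contacts of these baits were fewer and longer than those of coding baits. Calls per bait averaged 6.78 ± 0.46 for baits without a coding gene end and 8.88 ± 0.56 for coding baits (SD, n = 24 libraries) and were lower in all 24 libraries. Calls in cis spanned a median of 487 ± 32.2 kb for baits without a coding gene end, against 414 ± 26.0 kb for coding baits, and were longer in 24 of 24 libraries. Calls over 1 Mb made up 30.0 ± 2.79% of their cis calls, against 27.2 ± 3.17% for coding baits, with the share higher in 23 libraries. The largest gap was in the partner, since 15.6 ± 1.25% of their cis calls ended on a coding bait, against 22.9 ± 1.38% for coding baits, lower in all 24. The permutation test over sign flips of the 24 per-library differences gave adjusted p = 1.4e-05 for these 4 measures, which is the smallest that 100000 flips allow after adjustment over 10 tests.

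The number of calls per bait was uneven. The mean over libraries had a median of 3.21 calls in baits without a coding gene end and 4.96 in coding baits. Calls in every one of the 24 libraries were present for 2589 of them (45.7%), against 10067 coding baits (60.9%), and 2 of the 5668 never had a call in cis. The baits with the most calls were Gm24837 (a bait inside Ubap2, mean 151.9), Gm22766 inside Adam17, a fragment at chr7:31139159-31152823 inside Gramd1a, another at chr7:30596223-30599272 inside Zbtb32, Gm22888 inside Ubap2 and Gm25970 inside Prpf39. The Zbtb32 fragment, the one of these 6 that passed the test in Ezh2cKO, had 109 to 141 calls in Ezh2cKO libraries (median 116), against 129 to 166 in WT (median 150), and 173 and 183 at E8.5. Its ranges overlapped between genotypes and not between stages, and it fell by 0.35 on the log2 scale in Ezh2cKO and by 0.34 by E11.5 (limma, adjusted p = 0.0054 and 0.040).

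A non-coding gene end went with slightly more calls on average, though not in the median bait, and with fewer calls between chromosomes (trans). Baits with such an end averaged 6.93 ± 0.45 cis calls, against 6.67 ± 0.47 for those without (SD, n = 24), higher in 24 of 24 libraries (permutation test, adjusted p = 1.4e-05). The median bait did not have more, with a mean over libraries of 3.17 calls, against 3.21 without such an end. Cis calls of baits with a non-coding gene end ended on a coding bait in 14.3 ± 1.10% of cases, against 16.6 ± 1.40%, lower in every library (permutation test, the same p). Median distances were close, at 489.9 and 484.5 kb, with the first larger in 16 libraries (adjusted p = 0.0068), and the share over 1 Mb was 29.9 ± 2.89% against 30.1 ± 2.74% (adjusted p = 0.17). With pseudogene baits counted as non-coding ones, the differences in calls per bait, in trans calls and over 1 Mb turned round, and with a 5 kb margin around coding gene ends the distance difference turned to -15.5 kb.

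Between E8.5 and E11.5, contacts of many of these baits increased. The test per bait was run on 10344 baits with a mean of at least 5 cis calls over the 24 libraries. It used log2 of calls per 100000 cis calls of the library with 0.5 added, where the library total counted a pair of baits from each of them. It covered 2097 of the 5668 baits without a coding gene end (37.0%, against 49.9% of coding baits), since the others had too few calls. E8.5 gave 2 of the 24 libraries in that mean, so baits with calls mainly at E8.5 could miss the minimum. The tested baits were thus chosen in part by their calls at E11.5. At adjusted p below 0.05 (limma, Benjamini-Hochberg over all 10344), 531 of the 2097 (25.3%) rose by E11.5, against 19.2% of all baits tested, and 197 (9.39%) fell, against 9.91%. The median log2 difference was 0.17 in baits without a coding gene end and 0.03 in coding baits, of which 1456 of 8247 rose and 828 fell. E8.5 is represented by 2 libraries, and without the first or the second of them 427 and 436 of the 728 calls were kept and 86 and 84 baits fell.

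Among the tested baits, the rise was spread over the classes and was larger far from coding genes. Among baits with a non-coding gene end, 233 of 907 rose and 97 fell. Among those with no gene end 242 of 971 rose and 85 fell, and among pseudogene baits 56 of 216 rose and 15 fell, with medians of 0.18, 0.16 and 0.16. Baits of long non-coding RNA genes had a median of 0.27, with 108 of 341 rising and 30 falling. Those of microRNA genes counted 46 rises and 14 falls among 154, those of small nuclear RNA genes 55 and 25 among 230, and those of small nucleolar RNA genes 44 and 30 among 230.

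By distance to the nearest coding gene end, 123 of 606 baits rose at 1 to 5 kb and 147 of 662 at 5 to 20 kb. The count was 169 of 600 at 20 to 100 kb and 92 of 229 over 100 kb away. Medians over the 4 distance ranges were 0.05, 0.09, 0.21 and 0.66, and the share that rose reached 40.2% over 100 kb. Falls numbered 59, 76, 45 and 17. The call minimum kept 606 of 1199 baits at 1 to 5 kb and 229 of 1176 over 100 kb away. Whether that minimum shaped the medians by distance was not tested. Baits between coding genes had a median of 0.23 (239 of 873 rose, 66 fell) and those inside a coding gene 0.10 (292 of 1224 rose, 131 fell). Baits with more calls passed the test more often. Among those with 5 to 10 calls 16.5% rose, against 10.3% of coding baits at that level, among those with 10 to 20 calls 29.3%, against 19.0%, and from 20 calls on 40.1%, against 31.0%.

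**Figure D1:**
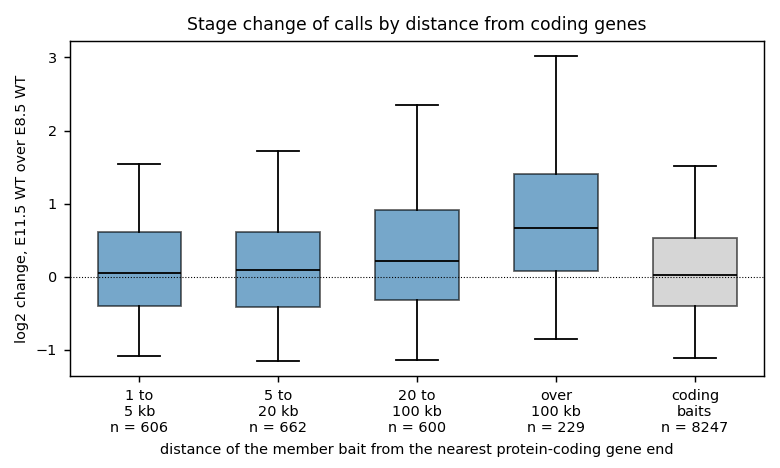
Log2 change of cis calls (E11.5 WT over E8.5 WT) for the 2097 tested baits without a coding gene end, in 4 ranges of distance to the nearest coding gene end, and for 8247 coding baits. Boxes span the quartiles with the median as a line and whiskers reach the 5th and 95th percentiles. The median was 0.05 at 1 to 5 kb and 0.66 over 100 kb.

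The microRNA locus inside Dnm3 on chromosome 1 changed most. Dnm3os is a long non-coding RNA transcribed opposite to Dnm3 and is the precursor of miR-199a and miR-214, which are known from skeletal and mesenchymal tissue. The Mir214 bait (chr1:162222740-162224171, 240 kb from a coding gene end) had 43 to 56 calls in WT E11.5 libraries (median 50.5), against 1 and 0 at E8.5 (limma, adjusted p = 4.9e-13). The neighbouring Dnm3os and Mir199a-2 bait (chr1:162216614-162217817) had 53 to 68 calls in WT E11.5 libraries (median 58.5), against 6 and 5 at E8.5, a log2 difference of 3.23 ± 0.12 (SE, adjusted p = 1.8e-13). A fragment with no gene end farther along Dnm3 (chr1:162146582-162153573) had 18 to 49 calls in WT E11.5 (median 35.5), against 1 and 0 (adjusted p = 3.2e-10). In none of the 3 did the stages overlap, and no fold is given against 1 call or fewer. Both microRNA baits reached the promoter of Pigc, a gene of glycolipid anchor synthesis 255 and 249 kb away, in 6 (Mir214) and 8 (Dnm3os) of 8 WT E11.5 libraries and in neither E8.5 library. In Ezh2cKO, Mir214 had 42 to 59 calls and Dnm3os 48 to 60, with log2 differences of -0.03 and -0.10 (adjusted p = 0.93 and 0.44).

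Several other rises lay beside coding baits that rose too. LOC108169085 (chr5:148944325-148949272) had 10 to 38 calls in WT E11.5 libraries (median 20), against 1 and 1 at E8.5 (limma, adjusted p = 4.9e-09). It reached Hmgb1, a chromatin protein gene 107 kb away, in 8 of 8 WT E11.5 libraries and in neither E8.5 library, and the Hmgb1 bait itself rose by 4.58 on the log2 scale. The adjoining 8430423G03Rik bait had 3 to 20 calls (median 10), against 0 and 0. A fragment inside Wdr95 (chr5:149526935-149531979) had 5 to 21 calls (median 14.5), against 0 and 0, and its neighbour Medag, a gene of fat cell formation, rose by 5.36.

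Mir125b-2, a microRNA known from proliferating and neural cells, lies 529 kb from the nearest coding gene end. It had 4 to 11 calls in WT E11.5 libraries (median 7.5), against 0 and 0 at E8.5 (limma, adjusted p = 2.3e-07). Another 3 of the named baits with a non-coding gene end stood at 0 in each library of E8.5, namely 4930404H24Rik with 7 to 17 calls in WT E11.5, Mir344e with 5 to 8 and Gm25095 with 5 to 9. Bcas3os1, beside the limb and face regulator Tbx2, had 3 to 34 calls in WT E11.5 libraries (median 10.5), against 1 and 0. The stages did not overlap for any of these 5 baits.

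Among fragments without any non-coding gene, chr1:54918683-54926638 inside Ankrd44 had 8 to 21 calls in WT E11.5 libraries (median 14.5) and chr6:139615915-139624182 inside Pik3c2g had 8 to 19 (median 12), against 0 in both E8.5 libraries each. The pseudogene baits with the largest rises were S100a11-ps beside Snapc1, with 4 to 10 calls against 0 and 0, Rpl26-ps2 near Foxa1, with 7 to 17 against 0 and 1, Gapdh-ps16 near Irx6, with 4 to 16 against 0 and 1, and Gm22791 inside Commd10, with 31 to 47 against 6 and 1. These baits were chosen by rank, so large differences are what the choice gives.

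Falls by E11.5 included the Mir302 and the Mir15b microRNA clusters, whereas the Mir17 cluster, given below, rose. The Mir302 and Mir367 bait (chr3:127545151-127550415, inside Larp7) holds a cluster known from pluripotent stem cells. It had 7 to 14 calls in WT E11.5 libraries (median 9), against 33 and 29 at E8.5, and fell by 1.71 ± 0.22 on the log2 scale (SE, limma adjusted p = 4.7e-06). The Mir15b and Mir16-2 bait (chr3:69009716-69013661) lies inside Smc4, a condensin gene. It had 2 to 10 calls (median 5.5), against 18 and 21, and fell by 1.86 ± 0.38 (adjusted p = 9.7e-04). Neither pair of groups overlapped, and the seeds of both clusters are shown above.

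The bait of Gm33940 and Gm13344 lies 12.0 kb from Ptf1a, a regulator of pancreas and hindbrain neurons. It had 2 to 5 calls in WT E11.5 libraries (median 3), against 18 and 17 at E8.5, and fell by 2.35 ± 0.38 (limma, adjusted p = 8.7e-05), beside a fall by 1.11 of the Ptf1a bait. At E8.5 it reached Gata3, Lhx6 and the Commd3 and Bmi1 promoter in both libraries, and in none of 8 WT E11.5 libraries. The other large falls among non-coding baits were Gm23258 inside Fhl1 (1 to 6 calls in WT E11.5, against 21 and 21), Gm23850 inside Lrba (1 to 6, against 15 and 16), LOC115490527 inside Thumpd3 (4 to 12, against 45 and 29), Gm23596 near Jph4 (3 to 9, against 15 and 19), Snord11 inside Nop58 (2 to 8, against 15 and 21) and Mir1896 inside Zscan26 (3 to 7, against 19 and 18). Without a gene end, the fragment chr11:78277508-78279621 inside 2610507B11Rik had 3 to 11 calls in WT E11.5 libraries (median 7), against 45 and 46, and fell by 2.78 ± 0.28 (adjusted p = 1.9e-07).

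**Figure D2:**
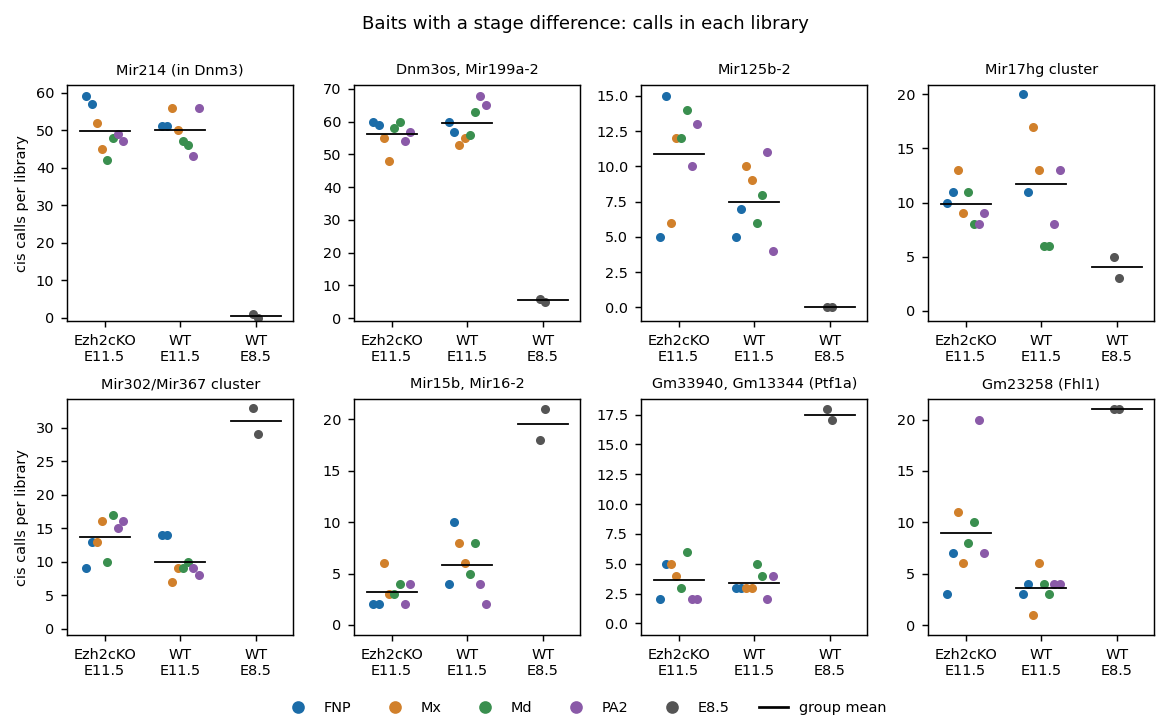
Cis calls per library for 8 baits that differed between stages. Each point is a library, coloured by tissue, in columns for Ezh2cKO at E11.5, WT at E11.5 and WT at E8.5, and bars mark group means. Mir214 had 43 to 56 calls in WT at E11.5, against 1 and 0 at E8.5, and the Mir302 cluster had 7 to 14, against 33 and 29.

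Other fragments that fell were chr5:135207755-135214527 inside Baz1b (1 to 12 calls in WT E11.5, against 24 and 25), chr12:109315515-109322400 toward the imprinted gene Dlk1 (2 to 7, against 18 and 29) and chr8:84930438-84938280 inside Mast1 (1 to 5, against 9 and 16). Pseudogene baits with the largest falls were Gm25059 (2 to 12, against 21 and 15), Gm5258 (3 to 6, against 17 and 12), Gm6756 (1 to 6, against 7 and 5) and LOC115487698 (2 to 8, against 11 and 11). Gm6756 was the one of these 7 whose stages overlapped.

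Chosen lists of non-coding genes gave few testable baits. Among 11 baits of genes known from mesenchyme and skeleton, 7 were tested, 5 rose by E11.5 and none fell, where 19.2% of all tested baits rose and 9.91% fell. They were the baits of Dnm3os and Mir214, the Mir17 cluster, the Mir143 and Mir145a bait of smooth muscle (12 to 20 calls in WT E11.5, against 7 and 5) and Mir140 of cartilage (3 to 9, against 0 and 4, an overlap). The Dnm3os and Mir214 baits lie in the same locus, and the Mir17 cluster bait is also on the list of widely expressed genes. The Mir17 cluster bait, a set of growth-promoting microRNAs, had 6 to 20 calls in WT E11.5 libraries (median 12), against 5 and 3, with a log2 difference of 1.27 ± 0.28 (limma, adjusted p = 0.0019). The pluripotency list had 2 tested baits, of which the Mir302 bait fell. The other, of Mir293 and Mir294, differed in the opposite direction, by 0.43, and did not pass (limma, adjusted p = 0.11). No bait of the epithelial or muscle lists could be tested, and the 1 tested of the blood and endothelial list did not pass.

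Among non-coding genes at developmental regulator loci, 3 of 7 tested baits rose by stage, where 19.2% of all tested baits did. Mir124a-2, a neuronal microRNA gene, had 20 to 28 calls in WT E11.5 libraries (median 22), against 11 and 7, a log2 difference of 1.25 ± 0.21 (limma, adjusted p = 1.1e-04). Mir137 had 2 to 10 calls, against 1 and 1. Crnde, beside the face patterning gene Irx5, had 21 to 33, against 14 and 19, and its difference of 0.49 passed narrowly (adjusted p = 0.046) and turned to -0.11 with scores of 7 or more. Of these 3, none overlapped between stages.

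Of 6 tested baits of imprinted non-coding genes, where one parental copy is silenced, 3 rose and none fell, against 19.2% and 9.91% of all tested baits. Airn, the antisense RNA of the Igf2r locus, had 15 to 36 calls in WT E11.5 libraries (median 19.5), against 6 and 5 at E8.5, a log2 difference of 1.74 ± 0.20 (limma, adjusted p = 1.7e-06). The H19 and Mir675 bait had 29 to 37 calls (median 32), against 20 and 13, a difference of 0.89 ± 0.18 (adjusted p = 7.5e-04). The bait of Mirg, a microRNA host gene of the Dlk1 and Meg3 region, rose by 0.88 (4 to 9 calls, against 2 and 3). The other 3 did not pass, namely the Mir431 bait (0.75, limma adjusted p = 0.15), Mir410 (0.0023) and Mir296 with Mir298 (0.0076). The Mir431, Mir410 and Mirg baits lie in the same region, so the 6 baits are not 6 separate loci. The 2 baits of Meg3 itself had too few calls to be tested.

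Widely expressed genes moved both ways. Both Snhg20 baits rose (1.11 and 1.38), as did the Mir17 cluster bait, given above. The bait at Xist and Tsix, the RNAs of X inactivation, had 24 to 37 calls in WT E11.5, against 47 and 51, and fell by 0.83 ± 0.18 (limma, adjusted p = 0.0016). Ftx, a neighbour of Xist, had 6 to 11, against 18 and 19, and fell by 1.39 ± 0.25 (adjusted p = 2.6e-04). Malat1, Neat1, Hotair, Hottip, Mir10b, Dlx6os1, Six3os1 and Sox2ot were in none of the 5668 baits.

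Fewer baits differed between Ezh2cKO and WT than between stages. Of 2097 baits without a coding gene end, 115 (5.48%) rose in Ezh2cKO over WT, against 5.91% of all 10344 baits tested, and 117 (5.58%) fell, against 5.09% (limma, adjusted p below 0.05). These shares lay near those of all baits. Rises numbered 75 without Mx Ezh2cKO replicate 2 and 76 without PA2 WT replicate 1. Coding baits counted 496 rises and 410 falls among 8247. Among baits with a non-coding gene end 49 of 907 rose and 56 fell, among those with no gene end 59 of 971 rose and 50 fell, and among pseudogene baits 7 of 216 rose and 9 fell. Small nuclear RNA baits had 9 rises and 22 falls among 230, and long non-coding RNA baits 27 and 21 among 341.

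Baits beside developmental regulators were counted apart. Of 62 tested baits whose nearest coding gene was on a list of developmental transcription factors and signals, 19 (30.6%) fell and 4 rose, whereas 98 of the other 2035 (4.82%) fell and 111 rose. The list was written by hand, and its baits were not tested as a set. No bait without a coding gene end had an Ezh2cKO effect that differed between the 4 tissues by the limma F test, for which the lowest adjusted p was 0.101 and 120 of 2097 had an unadjusted p below 0.05. Over all baits, 0.00967% passed that test.

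The bait of Gm34978 and Gm14114 (chr2:146838305-146843047) lies between Kiz and the Nkx2-4, Pax1 and Foxa2 genes, regulators of forebrain, sclerotome and floor plate. It had 0 to 3 calls in Ezh2cKO libraries (median 0.5), against 34 to 43 in WT (median 37.5), while E8.5 had 38 and 35. The genotypes did not overlap, and the fitted log2 difference, whose size depends on the 0.5 added, was -5.32 ± 0.33 (limma, adjusted p = 2.1e-10). Foxa2 (1206 kb away), Pax1 (524 kb) and Nkx2-4 (244 kb) were its partners in 0 of 8 Ezh2cKO libraries, against 8 of 8 WT libraries each. In the 6 deletion libraries the bait had 26 to 35 calls.

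Pax6os1 is the antisense RNA of the eye and forebrain regulator Pax6. Its bait (chr2:105669958-105671488, 1.06 kb from a Pax6 end) had 0 to 3 calls in Ezh2cKO libraries (median 1), against 17 to 31 in WT (median 28.5). The fitted difference was -4.61 ± 0.27 (limma, adjusted p = 9.2e-11), beside -4.17 at the Pax6 bait itself. Wt1, a kidney and gonad regulator 543 kb away, was its partner in 0 of 8 Ezh2cKO libraries, against 8 of 8 WT libraries.

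The Gm24538 bait (chr5:29480908-29483337) holds a small nuclear RNA gene 2.44 kb from the motor neuron gene Mnx1. It had 1 to 7 calls in Ezh2cKO libraries (median 4), against 50 to 59 in WT (median 55.5), and E8.5 had 45 and 47. The log2 difference was -3.70 ± 0.15 (limma, adjusted p = 3.6e-13), close to that of the Mnx1 bait (-3.51). En2, a midbrain regulator 1314 kb away, was reached in 1 of 8 Ezh2cKO libraries, against 8 of 8 in WT. Shh, the signalling ligand 1017 kb away, was reached in 0 of 8, against 8 of 8.

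The 6430503K07Rik bait (chr2:147187111-147190264) lies inside the span of Nkx2-2, a regulator of ventral neural tube. It had 9 to 12 calls in Ezh2cKO libraries (median 10), against 26 to 33 in WT (median 31), and fell by 1.59 ± 0.11 on the log2 scale (limma, adjusted p = 8.2e-10). Foxa2, 858 kb away, was reached in 1 of 8 Ezh2cKO libraries, against 8 of 8 in WT, and Insm1 in 0 of 8, against 7 of 8. Mir124a-1 and Mir3078 shared a bait 61.2 kb from a coding gene end that had 0 to 2 calls in Ezh2cKO libraries (median 0), against 9 to 13 in WT (median 11, adjusted p = 8.1e-08). None of these baits overlapped between genotypes.

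**Figure D3:**
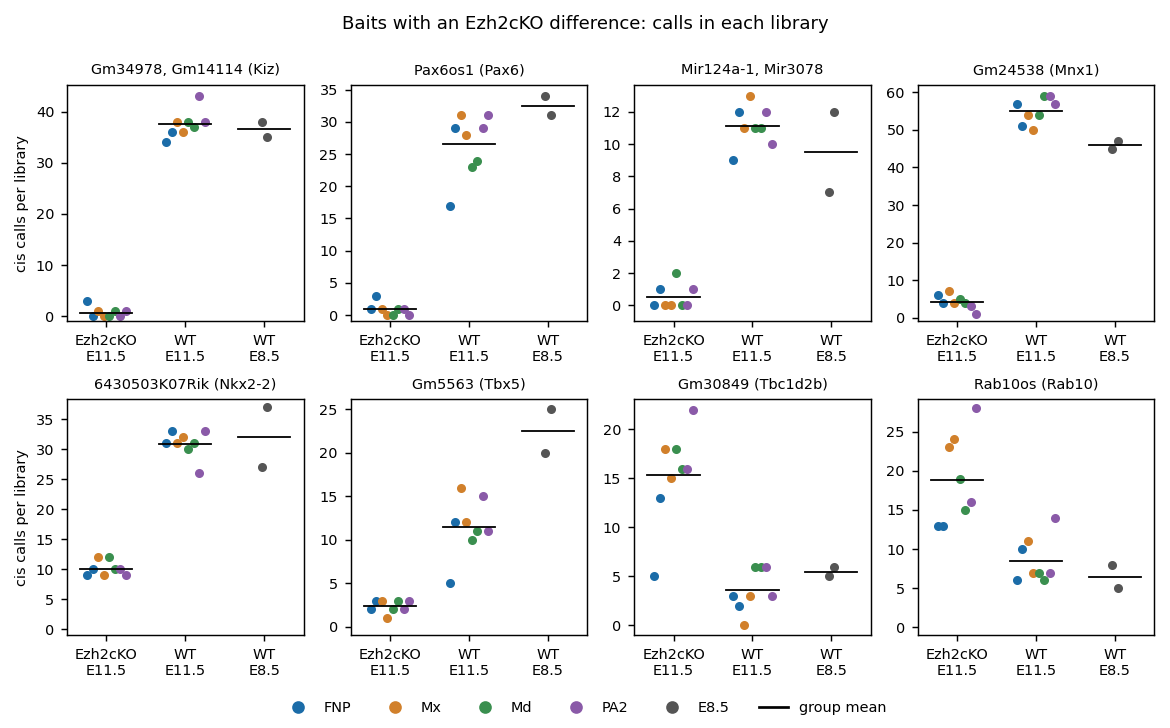
Cis calls per library for 8 baits that differed in Ezh2cKO. Each point is a library, coloured by tissue, in columns for Ezh2cKO at E11.5, WT at E11.5 and WT at E8.5, and bars mark group means. Gm24538 had 1 to 7 calls in Ezh2cKO, against 50 to 59 in WT, and Gm30849 had 5 to 22, against 0 to 6.

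Further falls among non-coding baits were Gm5563, inside the limb and heart regulator Tbx5, with 1 to 3 calls in Ezh2cKO, against 5 to 16 in WT, Gm26273 near Xkr9, with 1 to 11 against 13 to 26, and 4922502B01Rik, with 2 to 11 against 6 to 17. Gm5563 also fell by 1.09 with stage (limma, adjusted p = 0.028). Among fragments with no gene end, chr13:4769275-4774884, which lies 160 kb from Akr1e1, had 1 to 10 calls in Ezh2cKO libraries (median 3.5), against 22 to 34 in WT (median 27), and fell by 2.86 ± 0.26 (adjusted p = 1.1e-07). A fragment 1.74 kb from Otx2, the head organizer gene, had 2 to 5 calls, against 9 to 17, and fell by 1.90 (adjusted p = 1.3e-06). A fragment beside Nkx2-3 had 1 to 6, against 7 to 21, and one near Pou3f3 had 1 to 8, against 10 to 19. The Otx2 partner of the first was called in 2 of 8 Ezh2cKO libraries, against 8 of 8 WT libraries.

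Other baits nearest to developmental regulators are named here after their values were seen. The fragment inside Pax2, a kidney and ear regulator, had 7 to 16 calls in Ezh2cKO libraries, against 19 to 29 in WT, and fell by 1.21 ± 0.17 (limma, adjusted p = 6.5e-05). The fragment inside Hmx2 had 6 to 11, against 14 to 25, and fell by 1.07. Baits near Sox17, Pax3, Tfap2c, Evx2 and Gata3 fell by 0.51 to 1.18. Rises occurred near Nkx2-9 (C87198, 0.71), Pou3f1 (0.68), Tbx4 (0.56) and Onecut1 (0.30).

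A fragment 81.6 kb from Alx4, a regulator of the frontonasal skeleton, had unequal values among the WT tissues. It had 2 to 11 calls in Ezh2cKO libraries (median 6), against 5 to 38 in WT (median 10.5). The WT values were 26 and 38 in FNP, 13 and 17 in Mx, 8 and 5 in Md, and 7 and 8 in PA2. Its call count fell by 1.24 ± 0.32 in Ezh2cKO (limma, adjusted p = 0.016), with overlapping ranges.

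Several non-coding baits gained calls in Ezh2cKO. Gm30849 (chr9:90311640-90317752, near Tbc1d2b) had 5 to 22 calls in Ezh2cKO libraries (median 16), against 0 to 6 in WT (median 3), a log2 difference of 2.14 ± 0.33 (limma, adjusted p = 1.9e-04). Rab10os, antisense to the trafficking gene Rab10, had 13 to 28, against 6 to 14 (1.09 ± 0.19, adjusted p = 5.9e-04), and the Rab10 bait rose by 1.18. Both overlapped at the edge. The remaining named rises with a non-coding gene end were Gm33830 (6 to 13 calls in Ezh2cKO, against 2 to 5 in WT), E030011O05Rik (2 to 12, against 1 to 6), Bcas3os1 (14 to 40, against 3 to 34), the Mir431 bait at Rtl1 (7 to 13, against 2 to 8), 1700028I16Rik (9 to 16, against 3 to 11) and Mirlet7g, a let-7 family gene (4 to 12, against 2 to 8). For E030011O05Rik the 6 deletion libraries had 6 to 11 calls, all at or above the WT range.

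The largest rises among baits without a non-coding gene end are given next. A fragment inside Btbd9 (chr17:30483207-30485813) had 7 to 31 calls in Ezh2cKO libraries (median 14), against 1 to 4 in WT (median 2), a difference of 2.55 ± 0.31 (limma, adjusted p = 8.3e-06). The tested coding bait nearest to it, Glp1r, a gut hormone receptor gene, rose by 5.50 (adjusted p = 4.4e-12). The Gm25152 pseudogene bait inside Ect2 had 10 to 61 calls in Ezh2cKO (median 39.5), against 4 to 11 in WT (median 7), a difference of 2.23 ± 0.26 (adjusted p = 3.3e-06). On the same chromosome a fragment near Spata16 (chr3:26623811-26629410) had 74 and 4 calls in FNP Ezh2cKO, 31 and 3 in Mx, 22 and 43 in Md and 56 and 6 in PA2, against 1 to 6 in WT libraries. Its replicates disagreed in 3 of the 4 tissues, and its adjusted p was 0.014. The other large rises were chr2:155017543-155019411 in the agouti locus a (5 to 9, against 0 to 7), chr4:155811580-155821417 inside Ccnl2 (8 to 16, against 0 to 7), LOC115488036 near Frmd6 (11 to 16, against 0 to 11), Fau-ps2 inside Sfi1 (5 to 20, against 4 to 13) and Krt74 (31 to 57, against 21 to 44). At the agouti fragment the deletion libraries had 5 to 11 calls, like Ezh2cKO.

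Pseudogene baits with the largest falls in Ezh2cKO were Gm2058 (0 to 10, against 6 to 15), Olfr573-ps1 (2 to 10, against 6 to 15), Gm27396 (2 to 7, against 8 to 14) and Rpl21-ps14 (6 to 35, against 18 to 48). Of the 3 receptor segment baits tested, Ighd had 1 to 13 calls in Ezh2cKO libraries, against 16 to 36 in WT, and fell by 1.73 ± 0.29 (limma, adjusted p = 4.0e-04). Ighg2c had 0 to 11, against 4 to 14, and fell by 1.46. Igkv14-111 had 3 to 12, against 6 to 14, and did not pass. In the 6 deletion libraries Ighd had 6 to 23 calls and Ighg2c 3 to 11. Receptor loci hold many near-identical segments, and how reads were divided among them is not given.

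On the list of non-coding genes at developmental loci, 3 of 7 tested baits fell in Ezh2cKO, namely Pax6os1, Mir124a-1 and Mir9-2, and none rose, where 5.09% of all tested baits fell and 5.91% rose. The Mir9-2 bait, of a neural progenitor microRNA, had 12 to 26 calls in Ezh2cKO libraries, against 24 to 33 in WT, and fell by 0.60 (limma, adjusted p = 0.016). Among 6 tested baits of imprinted genes 4 rose and none fell, against the same shares of all tested baits. They were the Mir431 bait (1.08), Mirg (0.62), H19 (40 to 56 calls in Ezh2cKO, against 29 to 37 in WT, 0.42 ± 0.11, adjusted p = 0.019) and Mir296 with Mir298 at Gnas (0.40). The Mir431 and Mirg baits lie in the same region, as does Mir410, which was tested and did not pass. The H19 bait did not overlap between genotypes, whereas the deletion libraries had 28 to 34. Its contact with Mrpl23, a mitochondrial ribosomal protein gene 48.4 kb away, was called in 8 of 8 Ezh2cKO libraries and 0 of 8 WT libraries. It was also called in all 6 deletion libraries and in neither E8.5 library. Among widely expressed genes Snhg7 and Ftx rose (0.96 and 0.51) and none of 10 fell. In the mesenchyme list 0 of 7 passed by limma, and 1 had an unadjusted p below 0.05.

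The change of a bait was set beside that of the nearest tested coding bait. Across the 2097 baits Pearson's r between both was 0.45 for stage and 0.37 for Ezh2cKO (Spearman's rho 0.44 and 0.30), and 0.58 and 0.52 over the 1047 whose coding neighbour lay within 50 kb. Over the 1050 with a neighbour farther away it was 0.34 and 0.25. These are descriptions across baits that share libraries and often contacts, and not tests. Exceptions were Mir302, where the nearest tested bait, Neurog2, fell by 2.13 in Ezh2cKO while the Mir302 difference was 0.41 and did not pass, and the fragment near Akr1e1, whose neighbour differed by 0.13.

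At the library level, the share of cis calls that involved baits without a coding gene end was 23.3 ± 0.12% in WT E11.5 libraries (SD, n = 8), against 22.7 ± 0.10% at E8.5 (n = 2). Their median call distance was 513 ± 17.5 kb, against 479 ± 16.3 kb, their trans share 2.72 ± 0.14%, against 3.22 ± 0.06% (without Fau-ps2, 2.06%, against 2.92%), and the share of cis calls that ended on a coding bait 15.5 ± 0.21%, against 16.9 ± 0.34%. For each of these 4 measures the two-sided exact permutation test gave p = 0.0444, the smallest that 8 against 2 libraries allow, and 0.0704 after adjustment over 38 tests. The share over 1 Mb was 32.2 ± 1.13%, against 31.8% (exact permutation p = 0.67).

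In Ezh2cKO, trans calls took a larger share and calls to coding baits a smaller one. Of the calls of these baits, 3.92 ± 0.51% were in trans in Ezh2cKO libraries, against 2.72 ± 0.14% in WT (SD, n = 8 each, exact permutation test within tissue, two-sided p = 0.00154, adjusted p = 0.00977). The share rose both with a non-coding gene end (3.10 ± 0.54%, against 1.88 ± 0.14%) and without one (4.55%, against 3.37%). Set against coding baits of the same library, the share was 0.48 points above in Ezh2cKO and 0.31 points below in WT (the same p). Without the pseudogene bait Fau-ps2, described below, it was 0.20 points below in Ezh2cKO and 0.97 points below in WT (the same p). Cis calls that ended on a coding bait were 14.3 ± 0.64%, against 15.5 ± 0.21% (adjusted p = 0.00977), while the gap to coding baits in that measure did not pass (adjusted p = 0.68). The share of all cis calls was 23.1 ± 0.44%, against 23.3 ± 0.12%, and did not pass (exact permutation p = 0.26). Median distance was 485 ± 35.6 kb, against 513 ± 17.5 kb, and the share over 1 Mb 29.6 ± 2.86%, against 32.2 ± 1.13% (adjusted p = 0.12 and 0.0704). A higher trans share than in WT was not particular to Ezh2cKO. It averaged 3.34% in Md 36kb-del, 3.82% in PA2 36kb-del and 4.67% in PA2 42kb-del. In the same order, median distances averaged 479, 457 and 437 kb and shares over 1 Mb 28.2, 27.0 and 25.6%. Cis calls that ended on a coding bait averaged 16.2, 16.5 and 17.9% there, above the WT mean. The deletion groups were not tested.

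**Figure D4:**
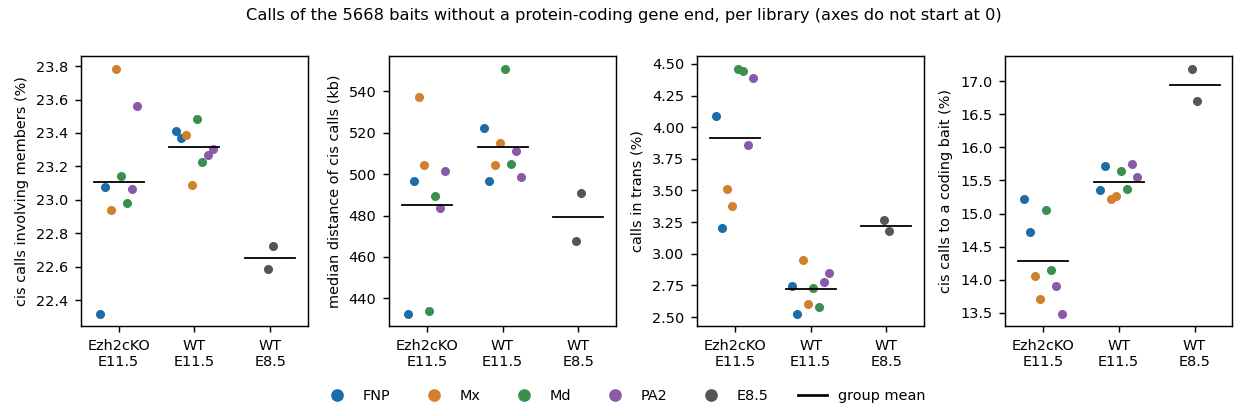
The share of cis calls that involved the 5668 baits, their median call distance in kb, their share of calls in trans and their share of cis calls that ended on a coding bait, per library. Points are libraries coloured by tissue in columns for Ezh2cKO at E11.5, WT at E11.5 and WT at E8.5, bars are group means, and axes do not start at 0. The trans share averaged 3.92% in Ezh2cKO, against 2.72% in WT at E11.5. The deletion groups, which are not drawn, averaged 3.34 to 4.67%.

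A single pseudogene bait held many of the trans calls. Fau-ps2 (chr11:3191408-3199767, inside Sfi1), a copy of a ribosomal protein gene, had 5947 trans calls over 24 libraries, 18.0% of the 33059 made by all baits without a coding gene end. It had 240 to 410 in Ezh2cKO libraries (median 293), against 225 to 331 in WT (median 267), and 113 and 116 at E8.5. The trans share of baits without a coding gene end was 3.47 ± 0.71%, against 3.19 ± 0.29% for coding baits (n = 24, higher in 16, permutation test adjusted p = 0.018), and without Fau-ps2 it was 2.87 ± 0.72% and higher in 7 libraries (adjusted p = 0.014 in the opposite direction). With a non-coding gene end the share was 2.70%, against 4.06% without one, and 3.00% without Fau-ps2, lower in 24 and 23 libraries. The Ezh2cKO difference without Fau-ps2 was 3.23 ± 0.52%, against 2.06 ± 0.10% (adjusted p = 0.00977). Next came Gm46877 inside Perm1 with 407 trans calls, of which 82.3% ended on unplaced contigs.

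Inside Hox clusters, trans calls were nearly absent in Ezh2cKO. Hox genes pattern the body axis and are classical Polycomb targets. The 5 baits without a coding gene end that lie in a Hox cluster, chosen after their values were seen and given without a test, made 0 to 1 trans calls together per Ezh2cKO library (median 0.5), against 22 to 50 in WT at E11.5 (median 35). They made 4 to 15 in 36kb-del libraries, 7 and 13 in 42kb-del libraries, and 11 and 25 at E8.5.

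The fragment at chr15:102948385-102950062, with no gene end, lies in the Hoxc cluster 4.46 kb from the nearest coding gene end. It made 1 trans call in FNP Ezh2cKO replicate 1 and 0 in the other 7 Ezh2cKO libraries. In WT at E11.5 it made 21 and 24 in FNP, 25 and 28 in Mx, 18 and 12 in Md, and 12 and 13 in PA2. It made 5, 5, 2 and 6 in 36kb-del libraries, 3 and 6 in 42kb-del libraries, and 3 and 13 at E8.5. Over all libraries 141 of its 197 trans calls (71.6%) ended in another Hox cluster, Hoxb6 being its partner in 0 of 8 Ezh2cKO and 6 of 8 WT libraries. Its cis calls fell by 0.29 ± 0.09 (61 to 91 in Ezh2cKO, against 80 to 110 in WT, limma adjusted p = 0.034).

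Within its own cluster the Hoxc fragment reached Hoxc8 in 3 of 8 Ezh2cKO libraries, against 8 of 8 WT libraries, Hoxc9 in 1, against 8, and the Hoxc5 and Hoxc4 promoter in 0, against 8. Another Hoxc5 bait was reached in 3, against 8, and Hoxc10 in 1, against 6. Hoxc12 was reached in 8, against 8, and Hoxc6 and Hoxc13 in 7 each, against 8. Outside the cluster it reached Calcoco1, 227 kb away, in 8 of 8 Ezh2cKO libraries and in none of the WT libraries, and Atp5g2, 277 kb away, in 6 and in none.

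The Mir196a-1 bait in the Hoxb cluster (chr11:96263625-96268694) holds a microRNA gene whose product targets Hox messages. It made 0 trans calls in every Ezh2cKO library, against 3 to 10 in WT at E11.5 (median 6.5), and 3 and 6 at E8.5, with Hoxc11 as partner in 0 of 8 and 6 of 8. Its cis calls did not pass the test (10 to 30 in Ezh2cKO, against 9 to 24 in WT, limma adjusted p = 0.48). Hoxb13, Hoxb4 and Hoxb5 were each reached in 0 of 8 Ezh2cKO libraries, against 7 of 8 in WT, and Cbx1, a heterochromatin protein gene 523 kb away, in 8 of 8, against 1 of 8. The bait of 5730596B20Rik inside Hoxa3 made 0 to 1 trans calls in Ezh2cKO, against 1 to 12 in WT (median 7), and its cis calls fell by 0.85 ± 0.11 (9 to 24 in Ezh2cKO, against 19 to 36 in WT, adjusted p = 1.9e-05). Hoxa13 was reached in 0 of 8 Ezh2cKO libraries, against 8 of 8 in WT.

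**Figure D5:**
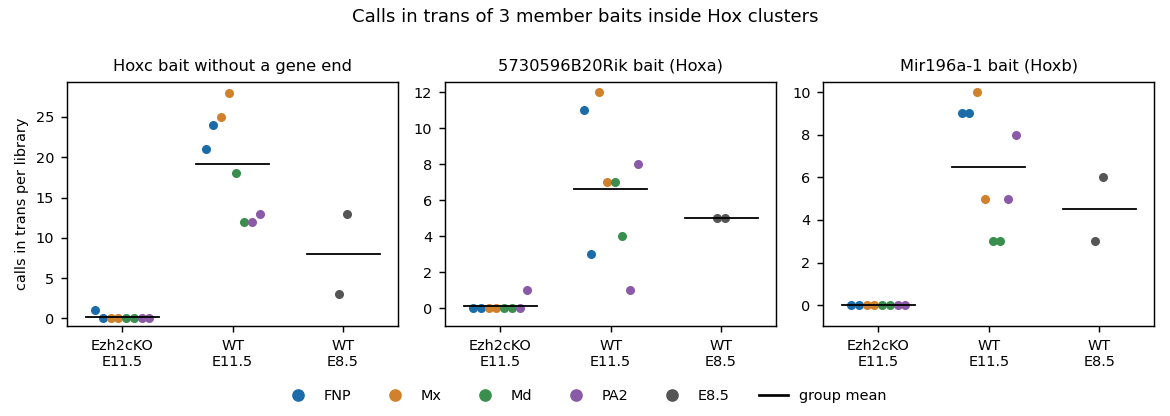
Trans calls per library of 3 baits without a coding gene end inside Hox clusters. Points are libraries coloured by tissue in columns for Ezh2cKO at E11.5, WT at E11.5 and WT at E8.5, and bars are group means. The Hoxc fragment made 0 to 1 calls in Ezh2cKO, against 12 to 28 in WT at E11.5.

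Single interactions were followed by presence. Among interactions with at least 1 end on a bait without a coding gene end, 15941 were called in at least 7 of 8 libraries of either genotype. Of these 289 (1.81%) were lost, meaning called in at most 1 of 8 Ezh2cKO and at least 7 of 8 WT libraries, against 2.24% of all 70834 interactions. The opposite pattern, a gain, held for 205 (1.29%), against 1.62% of all. With a non-coding gene end 172 of 7343 (2.34%) were lost and 81 (1.10%) gained. Between such a bait and a coding bait 53 of 3129 (1.69%) were lost and 29 gained. These are counts without a test.

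A few baits held many of the losses. The 5668 baits held 293 lost ends in 119 baits, with 33 at Gm24538, 26 at Gm34978 and Gm14114, 25 at the Hoxc fragment, 19 at 6430503K07Rik, 11 at Pax6os1 and 10 at the Pax2 fragment. Gains were spread over 162 baits with 210 ends, of which the Hoxc fragment held 10 and Gm25152 held 7. The highest scoring losses to a coding bait were the En2, Foxa2 and Foxa2 contacts of Gm24538, 6430503K07Rik and Gm34978 given above, the 1139 kb contact of the Pax2 fragment with Nkx2-3 (1 of 8 Ezh2cKO, against 8 of 8 WT libraries), a 1965 kb contact of chr17:40909932-40916518 with Cd2ap (1, against 8) and a trans contact of the Mir196a-1 bait with Wnt1.

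The Wnt1 contact was called in 0 of 8 Ezh2cKO libraries and 8 of 8 WT libraries at E11.5. It was called in none of the 6 deletion libraries and in neither E8.5 library. Wnt1 is a signalling ligand gene, and the Cre line named in the labels' protocols carries its name. An effect of the WT line used and one of Ezh2 cannot be told apart for this contact. Whether line differences enter the other Ezh2cKO comparisons was not tested, as the Cre driver of Ezh2cKO is not named. The nearby Gm53 bait showed it in 0 of 8, against 7 of 8.

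The highest scoring gains were a trans contact of Fam136b-ps with Fam136a (8 of 8 Ezh2cKO, against 0 of 8 WT libraries), which is a pseudogene with its parent gene, so reads may be shared between them, which was not tested. Others were trans contacts of a fragment inside Ank2 with the Zfp92, Trex2 and Haus7 promoter on chromosome X (8, against 0) and of chr4:147537825-147541027 with Zfand1 (7, against 0). In cis, Gm24661 gained Glo1 at 172 kb (8, against 1), Gm22371 gained Bzw1 at 971 kb (7, against 1) and the Mir196a-1 bait gained Cbx1.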

How the data were processed

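Promoter capture Hi-C was made from 24 mouse libraries in 12 groups of 2, grouped by their titles. Chromatin was cross-linked and cut with HindIII, per the labels' protocols. The deposited values are interaction scores, which per the file names come from CHiCAGO, 1 list per library, in coordinates of GRCm38 (mm10) per the submitters' processing notes. The lists have no header, hold scores of 5 or more, and name each pair of baits once. The aligner, the caller's version and its settings are not given in these sources.

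Gene ends came from RefSeq annotation of the same build. A pair was counted from each of its baits, also in the library total of the tests per bait. For tests per bait, log2((calls + 0.5) per 100000 cis calls) was fitted with limma 3.58.1 (12 group means, moderated variances with a trend) over 10344 baits whose mean reached 5 calls, with Benjamini-Hochberg adjustment over all of them. The fit was also run on simulated counts with like-sized libraries and independent baits, unlike these data, and no result here rests on it. Library shares used exact permutation tests over libraries, adjusted over 38 tests, and 100000 sign flips, adjusted over 10. Scores were not compared between libraries.

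The baits, gene lists and tests were chosen with earlier results of these data known. Named baits were the 8 largest rises and 8 largest falls with a non-coding gene end and the 4 largest of each other class among those past the threshold, listed genes that passed, 12 genes named in advance and the 6 baits with the most calls. The 12 were Malat1, Neat1, H19, Meg3, Hotair, Hottip, Mir196a-1, Mir10b, Dlx6os1, Six3os1, Sox2ot and Mir17hg. Other baits are named as chosen after their values were seen. The 9 gene lists were Hox, developmental, imprinted, widely expressed, mesenchyme, epithelial, muscle, blood and pluripotency non-coding genes. Of the Hox list, 2 of 3 baits were tested and 5730596B20Rik passed. Alternatives changed the score, the call minimum, the added constant, the scaling, the margin around gene ends, the place of pseudogenes, the replicate block and each library left out. The deletion groups entered the fit and are given as values. The E10.5 stage was not analysed here, and single values of a few baits are not reported here, although those baits are in the fits and counts. Titles call the samples biological replicates except for the 42kb deletion.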

Additional observations from a re-analysis of the deposited data

Results flagged for a closer look

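A gap test on the highest or lowest library of a group marked 2 of 30 groups of library values and 25 of 216 groups of bait values, where chance marks about 5%. No cause was tested for these values.

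Among library values, the median distance of Md WT replicate 1, 551 kb, stood apart from the other WT libraries at E11.5, and so did the 9.82% of cis calls held by baits with a non-coding gene end in FNP Ezh2cKO replicate 1. Bait values that stood apart in Ezh2cKO libraries included several of FNP. In FNP replicate 1 they were 2 calls at Gm25059, 5 at Gm30849 and 56 at H19 and Mir675. In FNP replicate 2 they were 2 calls at chr12:109315515-109322400, 10 at Gm25152, 61 at the Hoxc fragment chr15:102948385-102950062 and 10 at C87198. Md replicate 1 had 5 calls at Fau-ps2, 17 at Snhg20 with Mir6516, 117 at Gm22766 and 1 at Ighd. PA2 replicate 1 had 30 at LOC108169085 and 73 at Gm22888. PA2 replicate 2 had 1 at Gm24538 (3 to 7 in the other Ezh2cKO libraries), and Mx replicate 2 had 1 at Gm5563 (2 to 3 in the others).

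In WT libraries at E11.5, Mx replicate 1 had 1 call at Gm23258, 0 at Gm30849 and 93 at chr7:31139159-31152823. Md replicate 1 had 9 at Gm23596, while Md replicate 2 had 0 at chr4:155811580-155821417 and 11 at Ftx. FNP replicate 1 had 5 at Gm5563, PA2 replicate 1 had 26 at 6430503K07Rik and PA2 replicate 2 had 33 at Mir9-2.

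The deletion groups were not compared by a test. Only baits with a mean of at least 10 trans calls in a deletion were looked at here, so smaller counts are not covered. Among them, 4 of the baits reported here had trans calls above every WT and Ezh2cKO library, all in the 42kb deletion. The mean was 14.5 calls at chr8:105568286-105569008 near Agrp (19 and 10, against 0 to 6 elsewhere) and 12 at Gm24950 near Rdm1 (14 and 10, against 0 to 5). It was 10.5 at A630072M18Rik near Rsbn1l (9 and 12, against 0 to 3) and 10 at Gm22951 near Fmnl3 (14 and 6, against 0 to 3).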

How the results depend on the processing

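Counts followed the stringency of the lists. With scores of 7 or more, which leaves fewer baits to test, 286 baits rose and 81 fell by stage (128 and 40 with a non-coding gene end), and 56 rose and 63 fell in Ezh2cKO (27 and 28). With a mean of at least 10 calls, 113 fell by stage (58 with a non-coding gene end) and 74 rose in Ezh2cKO. The stage difference of Crnde became -0.11 at a score of 7, and the cause was not tested. Lost and gained interactions numbered 547 and 542 when 6 of 8 libraries sufficed.

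The trans share of baits without a coding gene end minus that of coding baits was -0.45 at a score of 7, -0.17 with a 5 kb margin, 0.097 with no margin, -0.32 without Fau-ps2 (chosen after seeing the data) and -0.094 over baits called in all 24 libraries. For baits with a non-coding gene end minus those without, pseudogenes counted as non-coding gave -0.42 calls per bait, 1.52 points in trans and 1.76 points over 1 Mb, and a 5 kb margin gave -15.5 kb and -1.10 points over 1 Mb. The causes were not tested.

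Leaving out each library in turn gave 365 to 510 rises and 84 to 191 falls by stage, with 160 to 228 and 51 to 96 among baits with a non-coding gene end. In Ezh2cKO it gave 75 to 106 rises and 90 to 117 falls, with 30 to 44 and 40 to 58 among those baits. Without Md WT replicate 1 and PA2 WT replicate 1 the last rises numbered 30 and 32. The Ezh2cKO difference in median distance was -36.1 to -20.1 kb and that in the share over 1 Mb -3.20 to -1.88 points, both passing without Mx Ezh2cKO replicate 1 alone. A replicate block gave 528 rises and 192 falls by stage and 114 and 118 in Ezh2cKO. Deviations of 66 pairs of same-numbered libraries correlated between -0.086 and 0.16, so the numbers do not pair the libraries. Among summary values 427 results under an alternative kept their direction and side of the threshold and 33 did not. With no read counts, depth behind a call is unknown, and E8.5 rests on 2 libraries.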
